A study of Mus musculus with 6 samples.

Results

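Expression of 7 genes of steroid hormone signalling was compared between brain tissue of mice with high and with low sexual motivation. The genes were 3 steroid receptors (Esr1, Nr3c1 and Nr3c2), the 3 coactivators of the p160 family (Ncoa1, Ncoa2 and Ncoa3) and the oestrogen-induced gene Greb1. They were chosen by name, and all 7 were among the 13170 genes of the deposited expression table. The samples were 6 poly(A) RNA libraries from C57 mice, adult males by the title of the series. In 3 of them (high libraries 1 to 3) the animals belonged to the group labelled high for sexual motivation, and in the other 3 (low libraries 1 to 3) to the group labelled low. The title names the medial amygdala, the extraction protocol names PrL tissue and the tissue label says brain. How motivation was scored, the exact age of the animals and whether a library came from 1 animal or from pooled animals were not given in the labels used here. No treatment, transgene or allele is named for either group. The p-values rest on the spread of these libraries alone, which may be technical, since the animals behind each library are not known.

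Steroid hormones cross the cell membrane and bind receptors that are themselves transcription factors. The loaded receptor binds DNA as a pair and recruits p160 coactivators, which carry leucine-rich motifs for the hormone-binding domain and bring histone-modifying enzymes to the gene. In the rodent medial amygdala, a relay for pheromonal and social cues, neurons with oestrogen receptor alpha take part in male sexual behaviour, and testosterone acts there partly after local conversion to oestradiol. Glucocorticoid and mineralocorticoid receptors bind the same stress hormone, corticosterone, the mineralocorticoid receptor with the higher affinity.

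Esr1, Nr3c2 and Greb1 had their 3 lowest values in the 3 high libraries, Nr3c1, Ncoa1, Ncoa2 and Ncoa3 overlapped between the groups, and none of the 7 passed the test over all genes. The promoters of the 3 genes whose groups did not overlap are shown as the 250 bases before each start that RefSeq gives in GRCm38.p6, read 5′ to 3′ on the strand of the gene. Capitals mark GGTCA, the core of the oestrogen response element, or its reverse complement TGACC.
Esr1, chr10:4611739-4611988, plus strand: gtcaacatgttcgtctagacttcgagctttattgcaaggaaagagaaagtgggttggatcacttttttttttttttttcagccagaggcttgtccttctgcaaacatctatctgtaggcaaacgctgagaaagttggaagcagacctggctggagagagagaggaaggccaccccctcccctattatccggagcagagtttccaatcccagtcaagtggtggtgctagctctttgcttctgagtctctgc
Esr1, chr10:4709908-4710157, plus strand: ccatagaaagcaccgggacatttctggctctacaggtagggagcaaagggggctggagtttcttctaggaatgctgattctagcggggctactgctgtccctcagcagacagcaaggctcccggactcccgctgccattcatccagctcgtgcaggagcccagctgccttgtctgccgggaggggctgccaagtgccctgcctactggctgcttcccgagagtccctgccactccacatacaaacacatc
Nr3c2, chr8:76902080-76902329, plus strand: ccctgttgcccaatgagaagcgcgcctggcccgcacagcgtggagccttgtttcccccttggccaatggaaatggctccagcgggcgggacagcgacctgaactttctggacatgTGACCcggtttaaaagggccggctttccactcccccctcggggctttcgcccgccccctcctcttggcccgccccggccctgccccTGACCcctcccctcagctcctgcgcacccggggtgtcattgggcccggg
Greb1, chr12:16800887-16801136, minus strand: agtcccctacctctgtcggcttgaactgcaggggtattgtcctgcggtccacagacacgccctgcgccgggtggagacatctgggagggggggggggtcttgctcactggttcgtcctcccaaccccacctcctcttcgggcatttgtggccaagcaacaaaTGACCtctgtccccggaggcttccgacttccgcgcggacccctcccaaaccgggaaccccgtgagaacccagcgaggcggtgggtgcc
Greb1, chr12:16757240-16757489, minus strand: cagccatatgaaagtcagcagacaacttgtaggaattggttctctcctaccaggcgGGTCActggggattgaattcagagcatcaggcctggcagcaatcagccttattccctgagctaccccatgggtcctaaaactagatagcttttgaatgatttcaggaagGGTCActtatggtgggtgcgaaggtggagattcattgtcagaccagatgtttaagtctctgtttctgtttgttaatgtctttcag
The core stood 2 times in the Nr3c2 window, 1 time in the first Greb1 window and 2 times in the other Greb1 window, and it was not found in either Esr1 window. Of 32851 RefSeq promoter windows of this length, 35.2% hold GGTCA on either strand. The full oestrogen response palindrome (GGTCA, 3 bases of any kind, TGACC), found in 0.0639% of all windows, was in none of the 5 windows shown. Nor was the glucocorticoid response palindrome (GNACA, 3 bases of any kind, TGTNC, with N for any base), found in 0.387%. The palindromes read the same on both strands, and the first of them contains the core. Which start was used in these libraries is not resolved by the deposited values.

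The levels of the 7 genes spanned the table. FPKM, fragment numbers scaled to transcript length and library size, allow levels to be set side by side between genes. Over the 6 libraries Ncoa1 had the highest mean, 14.7 FPKM, above 74.6% of all genes. Nr3c1 (7.33 FPKM) and Ncoa3 (7.15 FPKM) lay near the middle, followed by Nr3c2 (5.15 FPKM) and Ncoa2 (3.95 FPKM). Esr1 (0.857 FPKM) and Greb1 (0.701 FPKM) were near the bottom, in the lowest 6.55% and 3.90% of the table. Ncoa1 was above the other members in each library, and Esr1 and Greb1 were below the other members in each library. Between them, Nr3c1 (5.58 to 8.35) overlapped in range with its neighbour Ncoa3 (6.77 to 7.61), and Nr3c2 (4.08 to 6.17) overlapped with its neighbour Ncoa2 (2.93 to 4.36). Ncoa3 and Nr3c2, neighbours in this order too, did not overlap. Esr1 (0.446 to 1.16) overlapped with Greb1 (0.198 to 1.09).

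**Figure D1:**
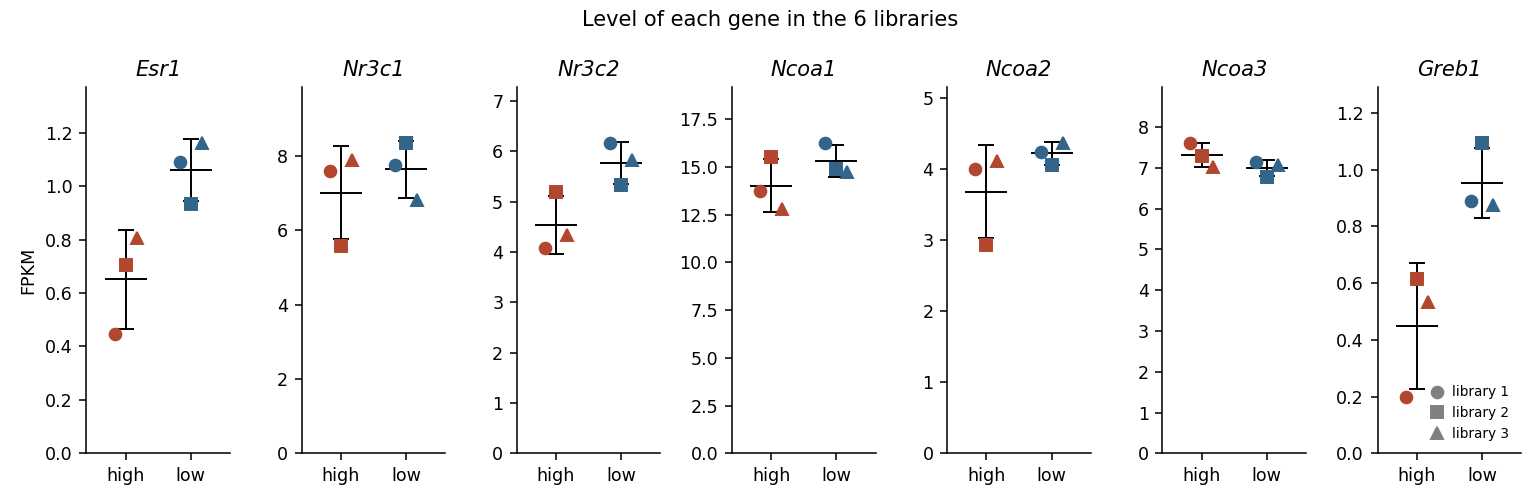
FPKM of each of the 7 genes (vertical axes from 0, with a scale per gene) in the 3 high and 3 low libraries, with a marker shape per library number and the mean ± SD in black. Esr1, Nr3c2 and Greb1 have no overlap between the groups, with 0.806 as the highest Esr1 value in the high group and 0.935 as the lowest in the low group.

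The tissue behind these values was neuronal with markers of several regions. Snap25, a synaptic protein of neurons, stood at 225 to 264 FPKM. Of 11 markers of medial amygdala and subpallium 9 were measured, with Lhx6 at 7.67 to 9.50 FPKM, while Lhx9 and Foxp2 stayed under 1.2 FPKM. Cortical and hippocampal markers were present too, Slc17a7, the vesicular glutamate transporter of cortical neurons, at 138 to 256 FPKM. Choroid plexus markers summed to 1340 and 4174 FPKM in low libraries 1 and 3, and to 41.5 to 111 FPKM in the other 4 libraries. Relative depth, estimated from low genes, spanned 0.916 to 1.28 of the median library, high library 2 being the deepest. All values are from bulk tissue, in which fewer cells of a type and less RNA per cell cannot be told apart.

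Esr1 encodes oestrogen receptor alpha and lies on chromosome 10 from 4611593 to 5005614 in GRCm38. High libraries 1 to 3 gave 0.446, 0.705 and 0.806 FPKM, and low libraries 1 to 3 gave 1.09, 0.935 and 1.16 FPKM. High library 1 was the lowest of the 6, and each high library was below each low library. The group means were 0.652 ± 0.185 and 1.06 ± 0.116 (SD, n = 3 each), so that the high group was 38.6% lower. After log2(FPKM + 1), a scale that shrinks differences of low genes, the difference was −0.32 (SE 0.113, 95% interval −0.58 to −0.06), with an unadjusted p of 0.0206 and an adjusted p of 0.575 by limma. The exact 2-sided permutation p of the mean FPKM was 0.1, the smallest that 3 against 3 libraries allow.

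Nr3c2, the gene of the mineralocorticoid receptor, which in rodent brain is densest in the hippocampus, lies on chromosome 8 from 76899442 to 77245012. In the same order it gave 4.08, 5.19 and 4.34 FPKM (high) against 6.17, 5.32 and 5.82 FPKM (low). The gap between the groups was narrow, since high library 2 and low library 2 lay close together. The means were 4.54 ± 0.582 against 5.77 ± 0.423, or 21.4% lower in the high group, with a log2 difference of −0.29 (SE 0.0962, 95% interval −0.51 to −0.07). Its unadjusted p was 0.0159 and its adjusted p 0.570 by limma, and its exact permutation p was 0.1.

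Nr3c1, the gene of the glucocorticoid receptor, lies on chromosome 18 from 39410545 to 39519421 and did not follow Nr3c2. Its values were 7.59, 5.58 and 7.89 FPKM (high) against 7.76, 8.35 and 6.83 FPKM (low). Apart from high library 2, the high libraries lay within the range of the low group. The log2 difference was −0.12 (SE 0.126, 95% interval −0.41 to 0.17; adjusted p = 0.798 by limma), and without high library 2 it was 0.02. The ratio of Nr3c1 to Nr3c2 FPKM within a library was 1.86, 1.07 and 1.82 (high) against 1.26, 1.57 and 1.17 (low). High library 2 thus had the lowest ratio and the other high libraries the highest.

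The p160 coactivators differed less. Ncoa1 (also SRC-1), which in rodent brain takes part in the response of sexual behaviour to oestrogen, lies on chromosome 12 from 4247362 to 4477182 and had 13.7, 15.5 and 12.8 FPKM against 16.3, 14.9 and 14.7 FPKM. High library 2 lay between the low libraries, and the other high libraries were below them. The log2 difference was −0.12 (SE 0.0823, 95% interval −0.31 to 0.07; adjusted p = 0.695 by limma). Ncoa2 (also GRIP1), a coactivator of the glucocorticoid receptor among others, lies on chromosome 1 from 13139105 to 13374083. Its values were 4.01, 2.93 and 4.11 FPKM (high) against 4.24, 4.05 and 4.36 FPKM (low). The low value of high library 2 set most of its log2 difference of −0.17 (SE 0.111, 95% interval −0.42 to 0.09; adjusted p = 0.688 by limma), which was −0.05 without that library.

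Ncoa3 (also AIB1), first known as a gene amplified in human breast cancer, lies on chromosome 2 from 165992636 to 166073242 and was the 1 member with a higher mean in the high group. It had 7.61, 7.29 and 7.02 FPKM against 7.14, 6.77 and 7.06 FPKM, with a log2 difference of 0.05 (SE 0.0661, 95% interval −0.10 to 0.21; adjusted p = 0.824 by limma). Its interval was the narrowest of the 7. Its spread within the groups, an SD of 0.0439 on the log2 scale, was undercut by 5.2% of the 500 genes of the most similar level, and that of Nr3c1 (0.192) by 87.0%. The exons of Ncoa3 share 154 bases with those of Sulf2 on the opposite strand, and the labels do not say whether counting used the strand.

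Summed, the 3 coactivator genes gave 23.9 to 25.8 FPKM (high) against 25.7 to 27.6 FPKM (low), ranges that overlap slightly. Ncoa3 made up 28.3% to 30.0% of this sum in the high libraries and 25.9% to 27.0% in the low libraries, with no overlap. Ncoa1 made up 53.5% to 60.3% over all 6 libraries and Ncoa2 11.4% to 17.2%, both with overlap between the groups. These shares are given as a description, since each rises when another falls.

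Greb1 encodes a chromatin-bound cofactor of oestrogen receptor alpha and is induced by oestrogen in human breast cancer cells. It lies on chromosome 12 from 16670615 to 16800886. High libraries 1 to 3 gave 0.198, 0.615 and 0.534 FPKM, and low libraries 1 to 3 gave 0.891, 1.09 and 0.874 FPKM. High library 1 had less than any other library by a wide margin, as for Esr1, and the groups were again apart. The means were 0.449 ± 0.221 against 0.953 ± 0.122, or 52.9% lower in the high group. The log2 difference was −0.44 (SE 0.132, 95% interval −0.75 to −0.14), with an unadjusted p of 0.0103 and an adjusted p of 0.560 by limma, and the exact permutation p was 0.1. The lowest mean over the 6 libraries in the deposited table is 0.5003 FPKM, a level that Greb1 reached through the low group. Its exons share 736 bases with an antisense gene that was not analysed here, and those of Nr3c2 and Ncoa1 share 247 and 68 bases with genes on the opposite strand.

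Per unit of Esr1, Greb1 did not separate the groups. The ratio of Greb1 to Esr1 FPKM was 0.443, 0.873 and 0.663 (high) against 0.818, 1.17 and 0.753 (low). High library 2 lay within the low range, and high library 1 had the lowest ratio.

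**Figure D2:**
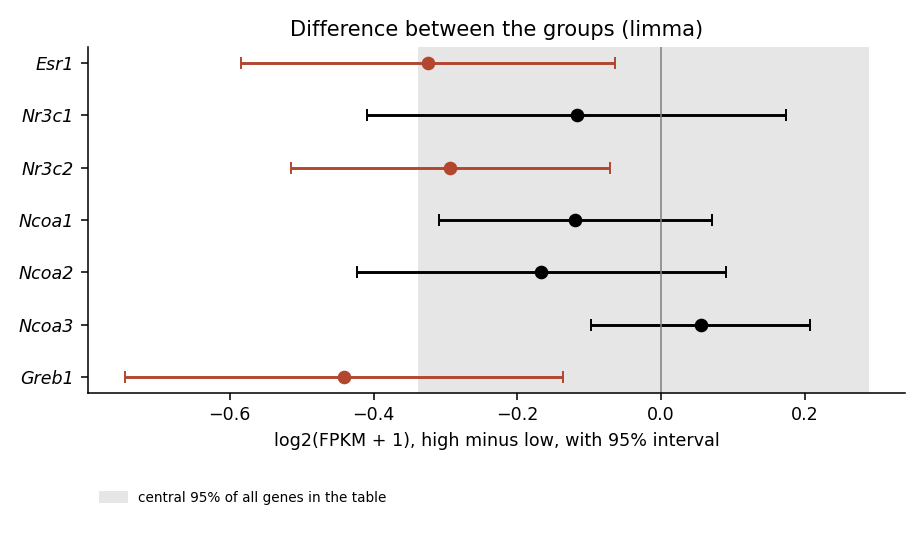
Difference between the groups on the log2(FPKM + 1) scale, high minus low, for the 7 genes, as points with 95% intervals from limma, not adjusted for the number of genes. Red marks genes whose groups do not overlap, and the grey band holds the central 95% of all genes, from −0.34 to 0.29. Of the 7 genes, Greb1 (−0.44) lies outside that band.

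Against all genes, 3 of 7 members had groups apart with the high group lower, where 7.59% of the 13170 genes did (1000 genes) and 14.8% had groups apart in either direction. Greb1 is listed only through its low group, so that its lower value in the high group is in part a condition of being listed. Of the other 6 members 2 had groups apart, Esr1 and Nr3c2. The same 3 had an unadjusted limma p under 0.05, where 4.31% of all genes did in the lower direction and 8.39% in either direction. In all, 6 members had a lower mean in the high group, against 49.8% of all genes, and their median log2 difference was −0.17, against 0.0003 over all genes. At an adjusted p under 0.05 limma called 0 members and 0 of 13170 genes (0%), with a smallest adjusted p of 0.328 and 1105 genes at an unadjusted p under 0.05. Ranked by limma p, Greb1 stood at 238, Nr3c2 at 366 and Esr1 at 466. The authors' deposited table gives an unadjusted p of 0.0260 for Greb1, 0.0313 for Esr1 and 0.0412 for Nr3c2. By the authors' deposited table, a share of 3.61% of all genes is lower in the high group at a p under 0.05. The members were chosen with earlier results of these data known, so the counts describe them and test nothing about them as a group.

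The 3 low members rested on high library 1 to different degrees. Without it the log2 difference was −0.31 for Greb1 (unadjusted p = 0.0264), −0.23 for Esr1 (unadjusted p = 0.0703) and −0.23 for Nr3c2 (unadjusted p = 0.0586), all from limma. After removal of a trend over transcript GC content and length, Greb1 kept −0.44, Nr3c2 had −0.26 and Esr1 had −0.27, with an unadjusted limma p of 0.0516. Nr3c1 had −0.02 after that step.

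**Figure D3:**
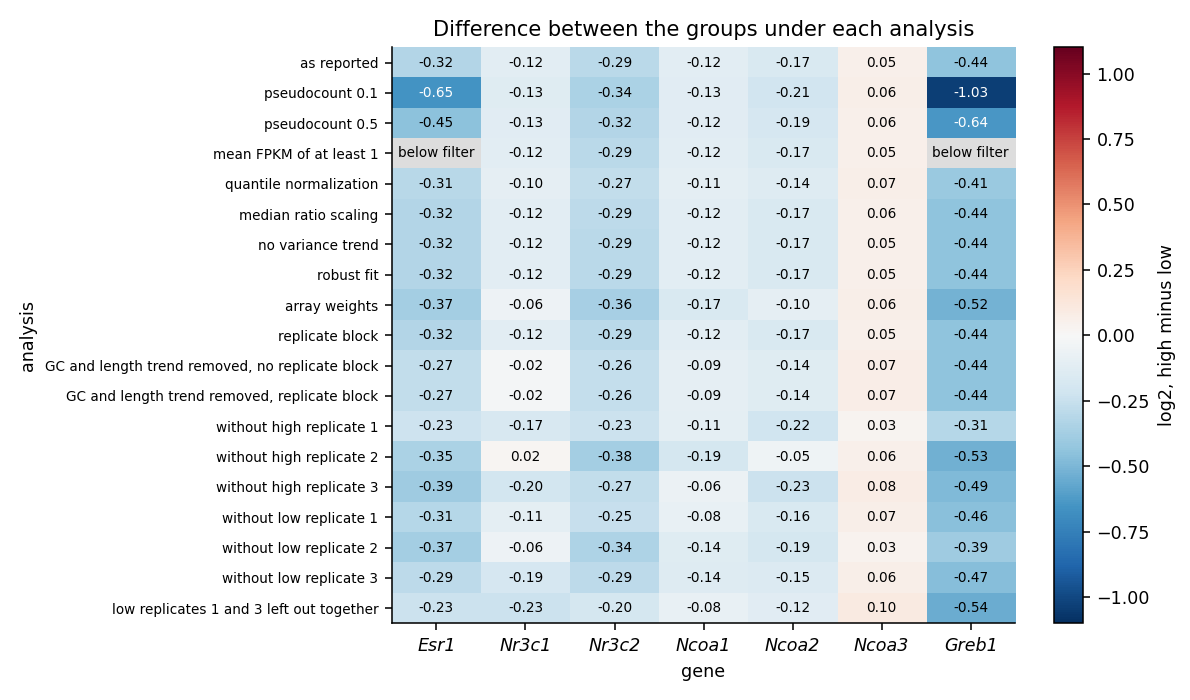
Log2 difference, high minus low, of each of the 7 genes (horizontal axis) under each analysis (vertical axis), with the value printed in each field and blue for lower in the high group. Esr1, Nr3c2 and Greb1 are negative in each analysis that gives them a value, and Nr3c1 turns to 0.02 without high library 2. Fields with pseudocounts of 0.1 and 0.5 are on another scale.

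Markers of cell types and regions went both ways between the groups. For comparison, 49.8% of all genes were lower in the high group. Groups were apart in 7.59% of all genes with the high group lower and in 7.17% with it higher. Those of neurons were higher in 3 of 4 with 0 apart. Of 9 measured markers of medial amygdala and subpallium 6 were higher and 3 lower, with Otp apart and higher. Astrocyte markers were lower in 4 of 5 with 0 apart. Microglial markers were higher in 3 of 5, with C1qa and C1qb apart and higher and P2ry12 apart and lower. Of 8 listed markers of ependyma and motile cilia 7 were measured, all 7 were lower in the high group and 6 had groups apart. They summed to 11.8 to 13.8 FPKM (high) against 20.6 to 40.5 FPKM (low), with 0 markers at 0. Choroid plexus markers were lower in 10 of 10, with 2 apart, Kcne2 and Aqp1, both listed only through their low group. The 10 markers summed to 41.5 to 111 FPKM against 81.8 to 4174 FPKM. In low library 2 their sum, 81.8 FPKM, was within the range of the high group. There Esr1 (0.935 FPKM) and Nr3c2 (5.32 FPKM) had the lowest values of the low group, and Greb1 (1.09 FPKM) had its highest. Cortical and hippocampal markers were lower in 8 of 9, with Emx1 and Neurod1 apart, though their sum overlapped (185 to 320 against 225 to 290 FPKM). Meningeal markers were higher in 7 of 7 with 0 apart, at 204 to 1094 against 62.7 to 345 FPKM. Oligodendrocyte markers were higher in 5 of 5 with 3 apart (the myelin genes Mbp, Mog and Mobp), at 281 to 334 against 257 to 286 FPKM. Endothelial and mural markers were higher in 5 of 5 with Pecam1 apart, at 40.02 to 68.0 against 33.1 to 40.4 FPKM. Of 6 measured hypothalamic markers 4 were higher and 2 lower, with the oxytocin gene Oxt apart and higher. They summed to 14.5, 16.1 and 33.6 FPKM (high) against 15.4, 15.2 and 10.1 FPKM (low), where high library 3 stood out with the vasopressin gene Avp at 15.8 FPKM. The part of these marker differences, choroid plexus included, in the results was not tested.

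The profiles closest to Esr1 over the 6 libraries were sought by the root mean square difference of log2(FPKM + 1) values, each gene centred on its own mean. In order they were Tsnaxip1 (0.0459), Zmynd10 (0.0460), Atp2c2 (0.0479), Cfap44 (0.0591) and Il17rd (0.0632). Tsnaxip1, with a mean of 0.353 FPKM in the high group, is listed only through its low group, as Greb1 is. Its lower value in the high group is thus in part a condition of being listed. Zmynd10 is needed for the assembly of ciliary dynein arms and Cfap44 is a protein of cilia and flagella. Zmynd10 gave 2.47, 3.11 and 3.59 FPKM (high) against 4.01, 3.95 and 4.07 FPKM (low). Il17rd, an inhibitor of fibroblast growth factor signalling, had 0.806 ± 0.168 against 1.12 ± 0.0130 FPKM. For Greb1 the closest were Rpl15 (0.0758), Kctd4 (0.0856), Tmem17 (0.0868), Htr5b (0.0869) and Insl5 (0.0925). Rpl15, a protein of the large ribosomal subunit, had 32.8, 44.4 and 42.7 FPKM against 49.1, 50.5 and 51.7 FPKM. Htr5b, a serotonin receptor, had 0.611 ± 0.165 against 0.992 ± 0.150 FPKM. These genes share with Esr1 and Greb1 a lowest value in high library 1, which follows in part from their choice by likeness. Esr1 itself ranked 21 of 12721 named genes by likeness to Greb1 (0.129), and Nr3c2 ranked 65 by likeness to Esr1 (0.0995). In the other direction Greb1 ranked 275 by likeness to Esr1, and Esr1 ranked 164 by likeness to Nr3c2.

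**Figure D4:**
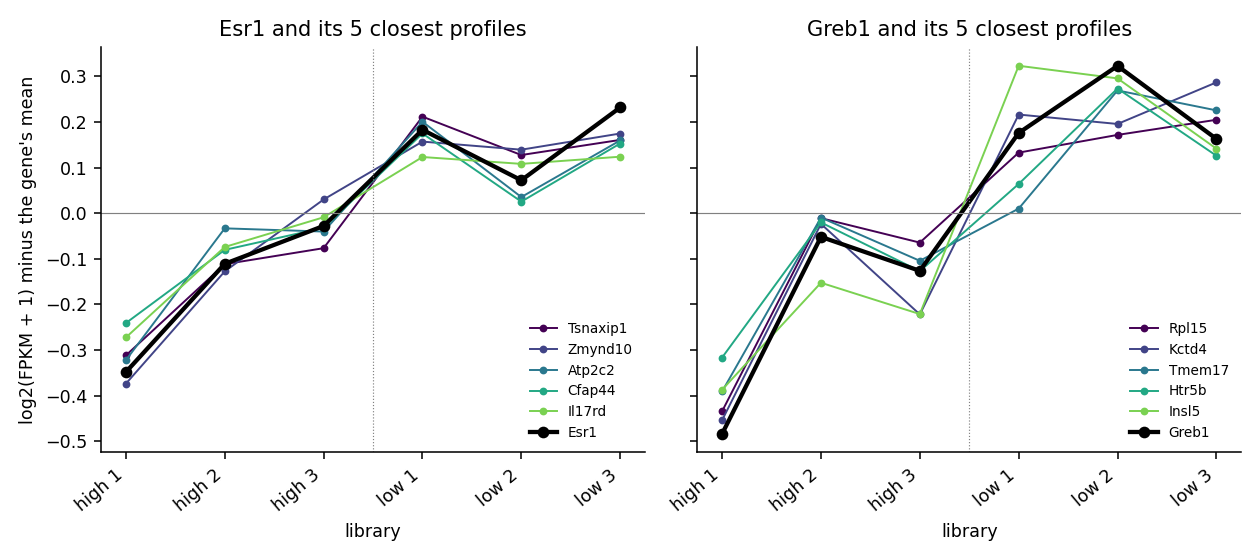
Centred log2(FPKM + 1) of Esr1 and of Greb1 (thick black) with the 5 genes of closest profile each (thin), by library, where lines join the values of a gene and libraries of a group have no order. Each gene shown has its lowest value in high library 1, where Esr1 is at −0.35 and Greb1 at −0.48. For the thin lines this follows in part from their choice by likeness.

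Other receptors of steroids gave no calls. Of 14 listed receptors and binding proteins 12 were measured, of which 4 were higher, 8 were lower and 0 passed the test, with a median log2 difference of −0.07. Of the 9 that are not members, 4 were higher and 5 lower, with a median log2 difference of −0.06. Among these 9 the 4 with the smallest p were Paqr7, Esrrg, Pgrmc1 and Pgr. Paqr7, a membrane progestin receptor, had 20.3, 18.8 and 20.7 FPKM against 18.3, 17.0 and 17.2 FPKM, groups apart with the high group higher (log2 difference 0.18, adjusted p = 0.575 by limma). Pgr, the nuclear progesterone receptor and an oestrogen-induced gene in rodent brain, had 2.14, 1.35 and 2.05 FPKM against 2.10, 2.01 and 1.90 FPKM, with overlap. The orphan receptor gene Esrrg (1.63 ± 0.396 against 1.82 ± 0.131 FPKM) and Pgrmc1 (226 ± 21.2 against 235 ± 5.69 FPKM) overlapped too. Esr2 and Esrrb were not analysed here.

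Among coregulators of nuclear receptors all 28 listed genes were measured, 11 higher and 17 lower, with 0 past the test and a median log2 difference of −0.04. Groups were apart in 5 with the high group lower and in 1 with the high group higher, the shares over all genes being 7.59% and 7.17%. Ncoa4, a nuclear receptor coactivator that also carries ferritin to lysosomes, had 3.87, 3.79 and 3.75 FPKM against 4.56, 4.43 and 4.41 FPKM (log2 difference −0.19, SE 0.0683, adjusted p = 0.578 by limma). Its libraries agreed closely within each group. Nrip1, a corepressor that oestrogen induces in breast cancer cells, had 1.38, 0.932 and 1.48 FPKM against 1.69, 1.72 and 1.54 FPKM, also apart. The other genes with groups apart, named after their values were seen, were Med13 (3.22 ± 1.20 against 4.18 ± 0.0908 FPKM), Ncor1, Ddx17 and, higher in the high group, Prmt1. Their log2 differences were −0.34, −0.09, −0.03 and 0.07 in that order, with an unadjusted limma p of 0.128, 0.158, 0.589 and 0.250. Med13 had 1.83 FPKM in high library 2 against 3.87 and 3.96 FPKM in high libraries 1 and 3. The acetyltransferase gene Kat2b (2.72 ± 0.278 against 3.32 ± 0.478 FPKM) and the coactivator gene Ncoa7 (5.45 ± 0.430 against 6.25 ± 0.568 FPKM) overlapped.

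Genes known to respond to oestrogen were mostly below 0 in log2 difference, without a call. Of 26 listed genes 18 were measured, 4 higher and 14 lower, with 0 past the test and a median log2 difference of −0.08. Without Greb1 they were 4 higher and 13 lower with a median of −0.08, where 49.8% of all genes were lower. Greb1 was apart but is listed only through its low group. Of the other 17 genes 2 were apart with the high group lower, Nrip1 and Stc2, against 7.59% of all genes. Stc2 encodes a secreted glycoprotein (0.701 ± 0.0993 against 0.961 ± 0.120 FPKM, log2 difference −0.21, adjusted p = 0.604 by limma). Ezr, which encodes a linker of membrane and actin, had 17.9, 21.0 and 19.8 FPKM against 24.8, 20.4 and 36.2 FPKM, and was highest in the low libraries 1 and 3 with their choroid plexus transcripts. Sytl4, a vesicle protein that depends on sex hormones in the mouse forebrain, had 0.328, 0.616 and 0.783 FPKM against 0.669, 1.05 and 0.846 FPKM, with overlap.

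Genes that corticosteroids induce were more often above 0, again without a call. Of 22 listed genes 21 were measured, 13 higher and 8 lower, with 0 past the test and a median log2 difference of 0.08. Of all genes 49.8% were lower in the high group. At an unadjusted limma p under 0.05 there were 4 higher and 1 lower, against 4.08% and 4.31% of all genes. Plin4, a lipid droplet protein, had 2.67, 2.66 and 2.49 FPKM against 1.55, 1.34 and 1.91 FPKM, groups well apart (log2 difference 0.48, SE 0.101, adjusted p = 0.498 by limma). Sult1a1, a sulfotransferase, had 11.6 ± 1.06 against 8.77 ± 0.637 FPKM, and Gjb6, connexin 30 of astrocytes, had 26.8 ± 2.41 against 19.7 ± 2.67 FPKM, both apart. Arrdc2, the fourth with a higher mean, overlapped and Pdk4, a kinase of energy metabolism, was apart and lower (2.44 ± 0.178 against 2.92 ± 0.264 FPKM), both named after their values were seen. Scnn1a, the sodium channel subunit that aldosterone induces through the mineralocorticoid receptor in kidney, had 0.373, 0.611 and 0.439 FPKM against 0.883, 0.638 and 0.818 FPKM. It was apart and lower in the high group (log2 difference −0.27, adjusted p = 0.586 by limma). Its mean in the high group, 0.474 FPKM, is under the lowest mean in the deposited table, 0.5003 FPKM. Like Greb1, it is listed only through its low group, so its lower value is in part a condition of being listed.

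**Figure D5:**
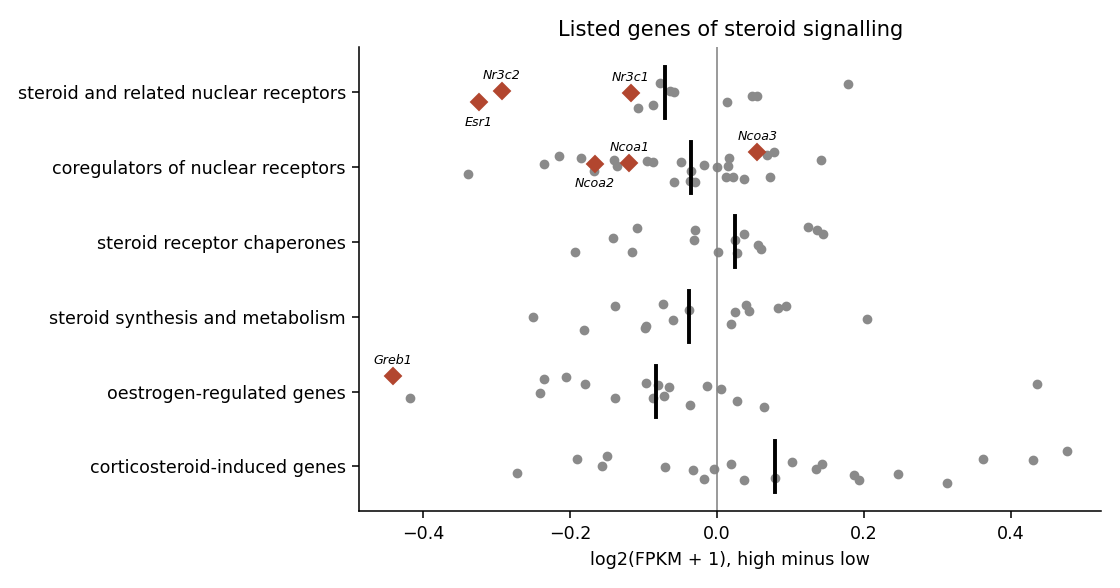
Log2 difference, high minus low (horizontal axis), of each measured gene of 6 lists of steroid signalling, with the 7 members as red diamonds, other genes as grey points and the median of each list as a black bar. The medians lie between −0.08 (oestrogen-regulated genes) and 0.08 (corticosteroid-induced genes), and Greb1, at −0.44, is the lowest point.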

How the data were processed

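Expression was measured by poly(A) RNA sequencing in 6 libraries, 3 per group as the labels give them. The tools named, per the submitters' processing notes, are StringTie, HISAT2 and fastp, without versions, and the build is GRCm38. The authors deposited FPKM per gene and library, with a log2 fold change and an unadjusted p-value. Recomputing the deposited columns gave the log2 ratio of group means and the p of an equal-variance test of FPKM in all 13170 genes, within 1e-06. FPKM carry no counts, so no count model was fitted and absolute depth is unknown. Relative depth is the commonest exact ratio between libraries over 1428 genes under 1.5 FPKM in every library.

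Log2(FPKM + 1) values of all 13170 genes were compared, high minus low, by limma 3.58.1 (R 4.3.3), using a variance trend and Benjamini-Hochberg adjustment over all genes at 0.05. No filter was applied, since Esr1 and Greb1 have mean FPKM under 1. Alternatives were pseudocounts of 0.1 and 0.5, a filter at a mean FPKM of 1, other scalings and variance models, array weights, the replicate number as a block, a spline trend (5 degrees of freedom) on GC content and length of the longest transcript over 13055 genes (99.1%), and libraries left out. Genes named are the 7 members, up to 4 others of each list by smallest p, and the 5 closest profiles of Esr1 and Greb1 without predicted gene models. 1 gene of the receptor list is not reported here by name. The members and lists were chosen with earlier results of these data known. Positions and transcripts are from GENCODE M21 and promoters from RefSeq, whose table matched 4 of 7 members. Other steps ran in Python 3.11.15 (scipy 1.17.1, pandas 2.3.3, numpy 2.4.6), and figures in matplotlib 3.10.9.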

Additional observations from a re-analysis of the deposited data

How the results depend on the processing

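Under 18 alternatives limma called 0 genes each time, with 0 to 0 when a library was left out. Genes with an unadjusted p under 0.05 numbered 643 without low replicate 1, 1461 without high replicate 2 and 391 with low replicates 1 and 3 left out together. The single low library left in that last fit is taken to vary as the high ones do. Greb1, Nr3c2 and Esr1 were lower in the high group in each alternative that gave them a value. The filter at a mean FPKM of 1 gave none for Esr1 and Greb1. Their adjusted p spanned 0.208 to 0.987 (Greb1), 0.190 to 0.987 (Nr3c2) and 0.271 to 0.987 (Esr1). Unadjusted p stayed under 0.05 in 17 of 17 alternatives for Greb1, 14 of 18 for Nr3c2 and 11 of 17 for Esr1, where Greb1 is listed only through its low group and its count carries that limit. With each library left out in turn, the log2 difference of Nr3c1 spanned −0.198 to 0.0191, that of Pgr −0.163 to 0.0450 and that of Pgrmc1 −0.114 to 0.0145, each turning positive without high replicate 2. H6pd had 0.000692 without low replicates 1 and 3; the cause was not tested. Deviations of same-numbered libraries from their group means correlated at −0.09, −0.20 and −0.15, which gives no sign of a pairing by replicate number. Deviations from a mean of 3 libraries depend on each other, so these values cannot decide whether the libraries were paired. With the replicate block limma called 0 genes, 817 had an unadjusted p under 0.05, and Greb1 had an adjusted p of 0.750. Libraries of 3 per group limit what can be called, and Esr1 and Greb1 lie near the lowest level of the table.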

Other observations

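Chaperones that hold steroid receptors ready for hormone were nearly level between the groups. All 15 listed genes were measured, 9 higher and 6 lower in the high group, with 0 past the limma test and a median log2 difference of 0.02. Fkbp4, the immunophilin FKBP52 that helps the progesterone and glucocorticoid receptors, had 52.2, 54.4 and 51.2 FPKM (high) against 45.4, 48.8 and 48.3 FPKM (low). The groups were apart, with a log2 difference of 0.14 (SE 0.0595, adjusted p = 0.588 by limma). Dnaja1, an Hsp40 cochaperone, was apart in the other direction, at 27.0 ± 0.565 against 30.0 ± 1.83 FPKM. These were 1 of 15 genes in each direction, where 7.17% of all genes were apart and higher and 7.59% apart and lower. Bag1 (58.6 ± 2.31 against 53.3 ± 3.80 FPKM) and Ptges3, the cochaperone p23 (28.9 ± 3.59 against 33.2 ± 4.19 FPKM), overlapped.

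Of 25 listed genes of steroid synthesis and metabolism 15 were measured, 7 higher and 8 lower, with 0 past the test and a median log2 difference of −0.04. Hsd11b1, the enzyme that regenerates active glucocorticoid inside cells, had 1.53, 1.40 and 1.45 FPKM (high) against 2.13, 2.07 and 1.61 FPKM (low). Its groups were apart (log2 difference −0.25, SE 0.0987, adjusted p = 0.586 by limma). It was the only such gene of the 15, where 7.59% of all genes were apart with the high group lower. H6pd, which supplies the cofactor for that enzyme, had 1.53 ± 0.216 against 1.71 ± 0.242 FPKM with overlap. Hsd17b10 (16.5 ± 1.23 against 19.0 ± 2.65 FPKM) and Hsd17b1, which makes oestradiol from oestrone (0.715 ± 0.251 against 0.487 ± 0.184 FPKM), overlapped as well. The low-group mean of Hsd17b1 is under the lowest mean in the deposited table, 0.5003 FPKM. Hsd17b1 is thus listed only through its high group, so its higher value there is in part a condition of being listed.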
